A study of Homo sapiens with 6 samples.

Results

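The enzymes that make purine and pyrimidine nucleotides were followed in HUDEP-2 cells, an immortalised line of human erythroid progenitors, after menin was depleted. The set was defined by name as 38 genes of purine, pyrimidine, folate, deoxynucleotide and salvage metabolism, and all 38 were found among the 62754 gene rows of the deposited tables. No measured value was used to choose them, although the set was proposed with earlier results of these data known. Both groups were labelled as the same line and grown in StemSpan SFEM with erythropoietin (3 units per ml), stem cell factor (50 ng per ml), dexamethasone and doxycycline (1 µg per ml). The first group (n = 3) carried a lentiviral shRNA against MEN1, the gene of menin, which is a subunit of the MLL1 histone methyltransferase complex, and was labelled as a MEN1 knockdown. The second (n = 3) carried a non-targeting shRNA and was labelled WT. Puromycin at 2 µg per ml was applied to both at 24 h after infection for 48 h, and RNA was taken at 72 h. HUDEP-2 was immortalised with inducible viral oncogenes that doxycycline keeps on, so both groups carried that drive to proliferate. The labels name 1 MEN1 hairpin, so an off-target effect of that hairpin cannot be told apart from the loss of menin, and the replicates are labelled as biological.

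Nucleotides are built by 2 kinds of route. In de novo synthesis the purine ring is assembled step by step on phosphoribosyl pyrophosphate (PRPP) to give inosine monophosphate (IMP), which branches to AMP and GMP, while the pyrimidine ring is made first and joined to PRPP afterwards. In salvage, free bases and nucleosides are recycled by transferases and kinases. Ribonucleotide reductase then makes deoxynucleotides for DNA, and folate carriers supply the carbon units for purines and for thymidylate. Dividing erythroid precursors need all of these, whereas the mature red cell has lost de novo purine synthesis and lives on salvage.

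The targeted gene was examined first. MEN1 was at 6.29, 6.44 and 6.88 TPM (a transcript level scaled for gene length and for the library total) after MEN1 knockdown and at 41.2, 39.6 and 37.1 TPM with the control shRNA, so that 16.6% of the control level remained (log2 fold change -2.42, SE 0.0803, adjusted p 8.52e-06 in limma). Depth inferred from the deposited values was 18400000 to 35800000 read pairs per library. The erythroid markers were present in every library, with GATA1 at 270.0 to 290.8 TPM and HBB at 27310 to 53000 TPM. The megakaryocyte markers PF4 and PPBP and the B cell marker MS4A1 were listed at 0 in all 6 libraries, and the summed megakaryocyte list reached at most 0.741 TPM. TPSAB1, a mast cell tryptase gene, was at 420.8 to 746.6 TPM in all libraries, while CPA3 and HDC of the same list stayed under 1 TPM. The summed lymphoid list was 3.97 to 5.71 TPM with the MEN1 shRNA and 0.874 to 1.23 TPM in the controls, and the summed monocyte and granulocyte list 0.396 to 0.964 against 2.13 to 2.40 TPM. Their part in the results was not tested. Globin transcripts took 9.21% to 10.4% of TPM with the MEN1 shRNA and 5.23% to 5.78% in the controls, which lowers the TPM of all other genes in the first group. In bulk RNA, fewer cells of a type and less RNA per cell cannot be told apart.

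Sequence just before the gene start is shown first because some members that moved together and some that moved apart held the same letters there. RefSeq promoter windows (GRCh38.p14) were found for 36 of the 38 members, all but ADSL and IMPDH2, and the 250 bases before the RefSeq start were searched on both strands. For 27 of the 36 the RefSeq start lay within 500 bases of the start in the deposited tables. Among the genes printed here the distance was larger for RRM2 (2041 bases), DCK (1111), MTHFD1L (807) and GART (599), and the window searched for PAICS lay 25234 bases from its deposited start. The palindromic E-box CACGTG, the letters recognised by MYC and related factors, was present in 6 of the 36 members (16.7%) against 6.35% of all 35114 windows. These 6 sites are printed 5′ to 3′ on the strand of the gene with the E-box in capitals. ATIC, DHODH and MTHFD1L were lower with the MEN1 shRNA, DCK was higher, and PPAT and MTHFD1 did not pass the test.
ATIC (chr2:215312001-215312030, plus strand): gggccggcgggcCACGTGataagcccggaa
DHODH (chr16:72008573-72008602, plus strand): gccgctactgcgCACGTGcacccaaccaga
MTHFD1L (chr6:150866320-150866349, plus strand): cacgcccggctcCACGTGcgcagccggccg
DCK (chr4:70993521-70993550, plus strand): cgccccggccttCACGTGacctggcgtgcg
PPAT (chr4:56435780-56435809, minus strand): aacggagatttcCACGTGcagcaaatacag
MTHFD1 (chr14:64388326-64388352, plus strand): ccagtccctaagCACGTGggttgggtt

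The E-box was thus present in 3 of 18 lower members, 1 of 6 higher members and 2 of 12 others, the same share in each. The stretch printed for PPAT (56435780 to 56435809) also lies inside the deposited row of PAICS, a lower member, which starts at 56435741. PAICS was counted as lacking the E-box from a window far from that start. The shares therefore depend on the windows used, and nothing is read from them. CCAAT boxes (CCAAT, either strand) were in 12 of 36 members (33.3%) and in 32.0% of all windows. RRM2 and GART each held 3 copies, and they moved in opposite directions: RRM2 was higher and GART was lower with the MEN1 shRNA. Their stretches are printed with the CCAAT letters, or their complement ATTGG, in capitals.
RRM2 (chr2:10122606-10122687, plus strand): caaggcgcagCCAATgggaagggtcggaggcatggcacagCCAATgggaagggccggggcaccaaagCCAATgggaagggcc
GART (chr21:33542931-33543025, minus strand): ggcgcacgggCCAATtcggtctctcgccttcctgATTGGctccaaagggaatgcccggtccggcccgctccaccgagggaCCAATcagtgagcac

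In RRM2 each box was followed by the same letters gggaaggg. The E2F letters TTTGGCGC or TTTCCCGC were found in 2 of 36 windows (5.56%, against 1.93% of all windows), those of PRPS2 and TYMS. The palindromic NRF1 motif was found in 1 window (2.78%, against 1.03% of all windows), that of MTHFD1. A match is a description of letters and no evidence of binding. PPAT and PAICS, which encode enzymes of the same pathway, are transcribed away from each other from starts 125 bases apart, and the bases between the deposited starts are printed on the PPAT strand because both genes share them.
PPAT and PAICS (chr4:56435616-56435740, minus strand): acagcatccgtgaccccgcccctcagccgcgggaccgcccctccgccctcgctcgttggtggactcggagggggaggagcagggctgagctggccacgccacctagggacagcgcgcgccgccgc

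Of the 38 members, 37 passed the filter on low values, which asked for 1 TPM in no fewer than 3 of the 6 libraries, and were tested. With limma on log2(TPM + 1), at a Benjamini-Hochberg adjusted p of 0.05 over all 14294 genes tested, 19 members (51.4%) were lower and 6 (16.2%) were higher with the MEN1 shRNA. Over all genes tested, 31.5% were lower and 22.1% were higher, 53.6% in all, so a large share of called genes is the background here. The median log2 fold change was -0.25 over the 37 members and -0.07 over all genes. Median-of-ratios scaling moved these to -0.16 and 0.0078. A fall of at least 2-fold was found in 4 members (10.8%), IMPDH1, PFAS, PRPS2 and CAD, against 6.90% of all genes, and no member rose 2-fold, against 4.96%. The groups did not overlap in 28 of the 37 members, against 61.8% of all genes. Higher members made up 24.0% of the called ones, while over all genes tested 3158 of the 7657 called were higher. With median-of-ratios scaling of TPM, 9 were higher and 18 lower (33.3%), and with the same scaling on coverage per base, 10 were higher and 19 lower (34.5%). The split over all genes is not given for these scalings.

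**Figure D1:**
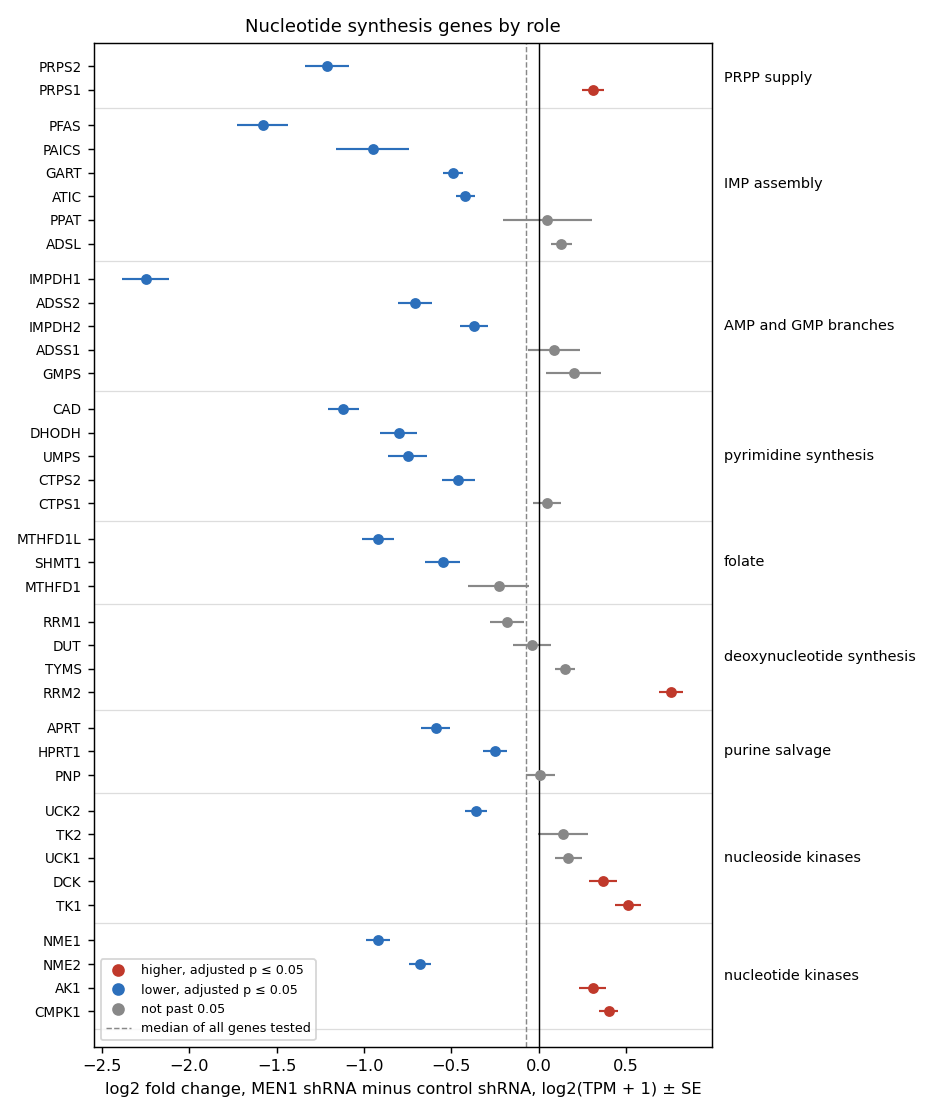
Log2 fold change of log2(TPM + 1), MEN1 shRNA minus control shRNA, with its standard error for the 37 members tested, ordered by role. Blue points were lower and red points higher at an adjusted p of 0.05, grey points did not pass, and the dashed line is the median of all genes tested (-0.07). The 19 blue points lie mostly in the de novo roles, and RRM2 is the farthest to the right at 0.76.

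The calls were spread unevenly over the roles of the enzymes. Among the 21 members of PRPP supply, de novo purine and pyrimidine synthesis and folate metabolism, 14 (66.7%) were lower and 1 (4.76%) was higher. Their median log2 fold change was -0.49. Among the 16 members tested for deoxynucleotide synthesis, salvage and the kinases, 5 (31.2%) were lower and 5 (31.2%) were higher, with a median of 0.08. Over all genes tested 31.5% were lower and 22.1% higher, so the share of lower members in the latter roles was near that of all genes. This division joins several roles on each side, is a description, and no test compared the roles.

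**Figure D2:**
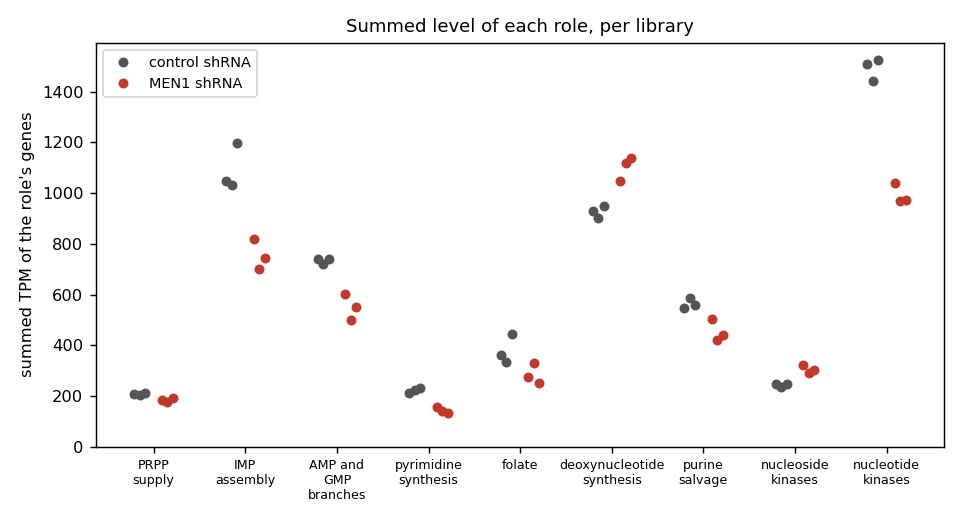
Summed TPM of the genes of each role in each library, grey for the control shRNA and red for the MEN1 shRNA. The sum for pyrimidine synthesis was 133.6 to 156.5 TPM with the MEN1 shRNA and 211.6 to 232.0 TPM in the controls, while that for deoxynucleotide synthesis, in which only RRM2 of 4 genes passed the test, was 1046 to 1138 against 903.1 to 950.8 TPM.

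PRPP is made by PRPP synthetase, whose isozymes are encoded on the X chromosome by PRPS1 and PRPS2. The genes moved in opposite directions. In hg38 coordinates, which are used throughout, PRPS2 (ENSG00000101911, chromosome X, 12791355 to 12824222) was at 49.6, 35.6 and 36.2 TPM after MEN1 knockdown, and the controls were at 91.5, 91.8 and 99.1 TPM (log2 fold change -1.21, SE 0.126, adjusted p 0.000183). PRPS1 (ENSG00000147224, chromosome X, 107628428 to 107651993) was at 135.6, 138.7 and 154.5 TPM after MEN1 knockdown, and the controls were at 117.2, 113.4 and 113.8 TPM (log2 fold change 0.31, SE 0.0646, adjusted p 0.0048). No MEN1 shRNA library overlapped the controls for either gene. As a result PRPS1 made up 73.2% to 81.0% of the summed PRPS TPM with the MEN1 shRNA and 53.5% to 56.2% in the controls.

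Of the 6 genes of IMP assembly, 4 (66.7%) were lower, against 31.5% of all genes tested. The largest fall was that of PFAS, the amidotransferase that acts on formylglycinamide ribonucleotide (ENSG00000178921, chromosome 17, 8247618 to 8270491). Its level was 33.1, 22.9 and 22.4 TPM with the MEN1 shRNA and 73.5, 81.1 and 81.3 TPM in the controls, a ratio of 0.332 (log2 fold change -1.58, SE 0.145, adjusted p 0.000112). All 3 MEN1 shRNA libraries were far below the lowest control. PAICS, which carries the carboxylase and the next ligase of the pathway (ENSG00000128050, chromosome 4, 56435741 to 56464578), was more scattered, at 167.2, 100.7 and 122.3 TPM against 220.2, 215.3 and 320.1 TPM. It passed the test (log2 fold change -0.95, SE 0.21, adjusted p 0.00627), with the highest value in control replicate 3.

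The trifunctional enzyme GART (chromosome 21, 33503931 to 33543491) was at 277.2, 253.4 and 265.8 TPM after MEN1 knockdown, and the controls were at 364.9, 370.5 and 387.0 TPM (log2 fold change -0.49, adjusted p 0.000273). ATIC, which closes the ring to IMP (chromosome 2, 215311956 to 215349773), was at 192.4, 180.6 and 187.1 TPM against 244.9, 248.9 and 258.7 TPM (log2 fold change -0.42, adjusted p 0.000407). Both genes fell by less than PFAS but with little scatter, and neither group overlapped. GART shares 454 bases at its start with SON on the opposite strand, whose level did not pass the test (log2 fold change 0.05, adjusted p 0.602).

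PPAT, which commits PRPP to the pathway, and ADSL, which acts both here and in the AMP branch, did not pass. PPAT (chromosome 4, 56393362 to 56435615) was at 35.5, 31.5 and 31.9 TPM after MEN1 knockdown, and the controls were at 39.9, 19.6 and 40.6 TPM (log2 fold change 0.05, adjusted p 0.887). Control replicate 2 held a low value, and without it the log2 fold change was -0.28 with an adjusted p of 0.0325, so 1 library decides the call and the direction. ADSL was at 112.7 to 116.6 TPM against 98.9 to 110.1 TPM (log2 fold change 0.13, adjusted p 0.102). ADSL passed, as higher, under median-of-ratios scaling (0.22, adjusted p 0.0228) and with TPM recomputed after removal of globin and mitochondrial genes (0.20, adjusted p 0.0255), while on coverage per base with median-of-ratios scaling its sign was negative (-0.11, adjusted p 0.363). Its row overlaps that of SGSM3 on the same strand over 19873 bases, and SGSM3 was lower (-0.81, adjusted p 0.00252).

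The branch from IMP to GMP held the largest fall of all members. IMPDH1, an isozyme of IMP dehydrogenase, the rate-limiting enzyme of guanine nucleotide synthesis (ENSG00000106348, chromosome 7, 128392277 to 128409986), was at 14.3, 9.74 and 10.2 TPM after MEN1 knockdown. It was at 57.8, 58.2 and 55.6 TPM in the controls, 5.02 times as high (log2 fold change -2.25, SE 0.134, adjusted p 2.8e-05). IMPDH2, the isozyme that is abundant in dividing cells (ENSG00000178035, chromosome 3, 49024325 to 49029447), was at 476.2, 388.0 and 402.9 TPM against 554.8, 532.9 and 546.3 TPM (log2 fold change -0.37, SE 0.0811, adjusted p 0.00602). An unnamed row, ENSG00000290315, overlaps IMPDH2 on the same strand over 5103 bases and was at 0.0512 to 7.48 TPM. Both isozymes fell, by very different amounts. IMPDH1 was the minor isozyme throughout, with 2.45% to 2.92% of the summed IMPDH TPM with the MEN1 shRNA and 9.24% to 9.85% in the controls.

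GMPS, which aminates xanthosine monophosphate to GMP, did not pass (log2 fold change 0.20, adjusted p 0.314). It was at 64.2 and 63.4 TPM in MEN1 shRNA replicates 1 and 2, inside the spread of the controls (63.3 to 64.6 TPM), and at 98.1 TPM in replicate 3. It passed as higher on coverage per base with median-of-ratios scaling (0.13, adjusted p 0.0433). On the AMP side, ADSS2, the adenylosuccinate synthase of most tissues (chromosome 1, 244408494 to 244451909), was at 46.2, 37.2 and 38.1 TPM against 62.3, 66.6 and 71.0 TPM (log2 fold change -0.71, SE 0.0971, adjusted p 0.000646). The muscle isozyme ADSS1 was barely detected, at 1.79, 1.45 and 1.54 TPM against 1.21, 1.48 and 1.65 TPM, with a mean coverage of at most 1.07 reads per base. It did not pass (log2 fold change 0.09, adjusted p 0.661).

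**Figure D3:**
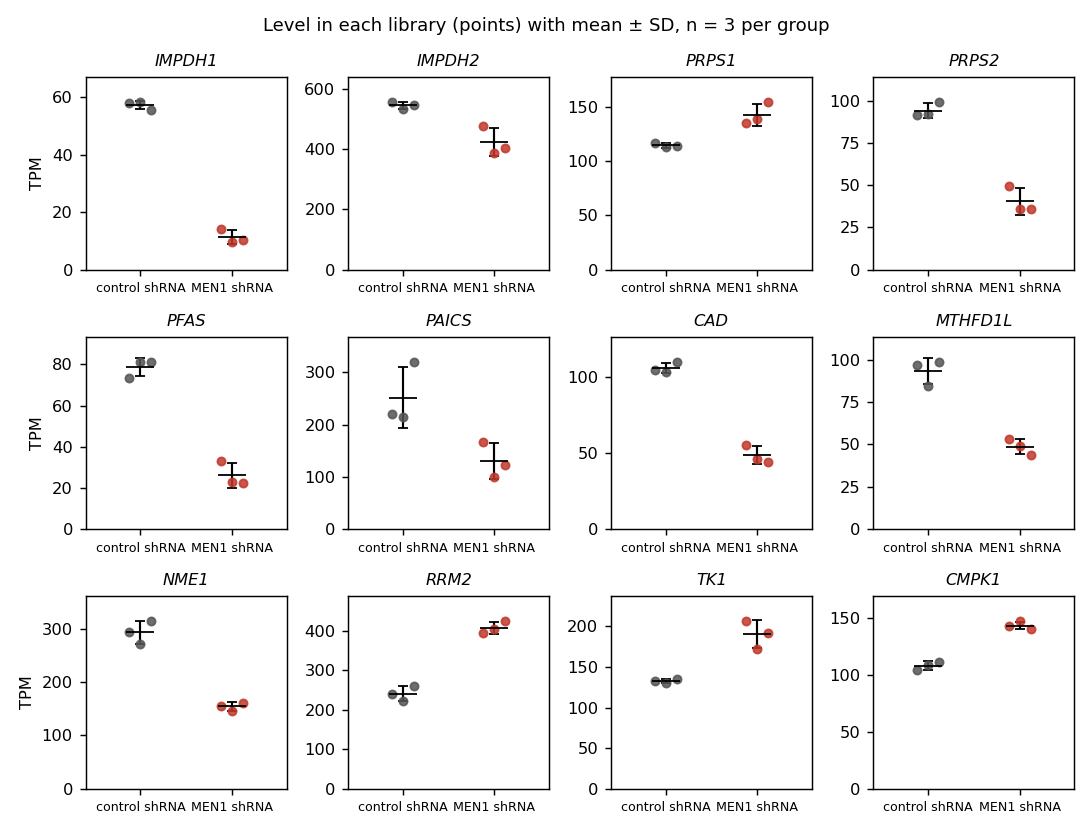
TPM of 12 members in each library (points) with the mean and SD of each group (n = 3), each panel on its own linear axis from 0. The control points of IMPDH1 sit between 55.6 and 58.2 TPM and the MEN1 shRNA points between 9.74 and 14.3 TPM, whereas RRM2, TK1, CMPK1 and PRPS1 are higher with the MEN1 shRNA.

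Of the 5 genes of de novo pyrimidine synthesis, 4 (80.0%) were lower, against 31.5% of all genes tested. The lower genes included each of those whose enzymes lead to UMP. CAD, which fuses the first 3 activities of the pathway in 1 protein (ENSG00000084774, chromosome 2, 27217369 to 27243943), was at 55.4, 46.1 and 44.6 TPM after MEN1 knockdown, and the controls were at 104.9, 103.5 and 110.2 TPM (log2 fold change -1.12, SE 0.0888, adjusted p 6.73e-05). DHODH, the mitochondrial dehydrogenase (chromosome 16, 72008588 to 72027664), was at 7.196, 6.588 and 5.713 TPM against 11.7, 11.7 and 12.6 TPM (log2 fold change -0.80, SE 0.106, adjusted p 0.000559). UMPS, which adds PRPP and forms UMP (chromosome 3, 124730433 to 124749273), was at 19.7, 17.5 and 16.9 TPM against 27.2, 35.8 and 30.7 TPM (log2 fold change -0.75, SE 0.113, adjusted p 0.00101). In none of the 3 genes did the groups overlap.

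The CTP synthases differed from each other. CTPS2 (chromosome X, 16587999 to 16712936) was at 13.6, 12.3 and 11.7 TPM after MEN1 knockdown, and the controls were at 16.4, 18.8 and 17.5 TPM (log2 fold change -0.46, SE 0.0927, adjusted p 0.00425). CTPS1, the more abundant isozyme, was at 60.5, 57.2 and 54.8 TPM against 51.4, 54.8 and 61.0 TPM and did not pass (log2 fold change 0.05, adjusted p 0.653). The share of CTPS1 in the pair was 81.6% to 82.4% with the MEN1 shRNA and 74.5% to 77.7% in the controls.

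Of the folate enzymes, MTHFD1L and SHMT1 fell. MTHFD1L, which releases formate from mitochondrial folate (ENSG00000120254, chromosome 6, 150865679 to 151101887), was at 53.02, 49.13 and 44.02 TPM after MEN1 knockdown, and the controls were at 96.6, 84.6 and 98.6 TPM (log2 fold change -0.92, SE 0.0909, adjusted p 0.000148). SHMT1, the cytosolic serine hydroxymethyltransferase (chromosome 17, 18327860 to 18363563), was at 29.6, 23.6 and 25.0 TPM against 41.0, 38.8 and 35.6 TPM (log2 fold change -0.55, SE 0.1, adjusted p 0.00266). The cytosolic enzyme MTHFD1 overlapped between the groups, at 193.8, 255.5 and 181.0 TPM against 222.1, 209.5 and 311.5 TPM (log2 fold change -0.23, adjusted p 0.308). It passed as lower on coverage per base with median-of-ratios scaling (-0.19, adjusted p 0.0142), whereas its log2 fold change was -0.05 (adjusted p 0.784) without control replicate 3 and -0.38 (adjusted p 0.109) without MEN1 shRNA replicate 2.

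Deoxynucleotide synthesis did not follow the de novo enzymes. RRM2, the regulatory subunit of ribonucleotide reductase that is made in S phase (ENSG00000171848, chromosome 2, 10120698 to 10211725), was at 393.9, 404.7 and 423.9 TPM after MEN1 knockdown, and the controls were at 239.9, 223.2 and 260.6 TPM, a ratio of 1.69 (log2 fold change 0.76, SE 0.069, adjusted p 0.000109). This was the largest rise among the members, and the groups were well apart. RRM1, the catalytic subunit, overlapped between the groups, at 161.7, 160.6 and 197.6 TPM against 201.9, 178.3 and 205.9 TPM (log2 fold change -0.18, adjusted p 0.167). Without MEN1 shRNA replicate 3 it passed as lower (-0.27, adjusted p 0.0295).

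TYMS, which makes thymidylate (chromosome 18, 657653 to 673578), was at 327.4, 349.4 and 341.8 TPM after MEN1 knockdown, and the controls were at 297.3, 299.3 and 321.0 TPM (log2 fold change 0.15, SE 0.0559, adjusted p 0.0532). The groups did not overlap, and it passed as higher under 8 of 16 alternatives, with an adjusted p of 0.00785 to 0.149 over all of them. It passed without MEN1 shRNA replicate 1 (adjusted p 0.0381) or control replicate 3 (adjusted p 0.0446). Its row overlaps ENOSF1 on the opposite strand over 3261 bases, and ENOSF1 did not pass (log2 fold change -0.29, adjusted p 0.141). TYMSOS, also on the opposite strand, overlaps it over 698 bases and was higher (log2 fold change 0.68, adjusted p 0.0394). DUT, which removes dUTP, was at 163.4 to 204.7 TPM with the MEN1 shRNA and 163.3 to 202.3 TPM in the controls (log2 fold change -0.04, adjusted p 0.789).

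DNA replication genes are given beside these values, since RRM2, TYMS and TK1 are made in S phase. Of 16 such genes, 8 (50.0%) were higher and 2 (12.5%) lower, against 22.1% and 31.5% of all genes. The median log2 fold change of the list was 0.15. Its summed level was 3152 to 3298 TPM with the MEN1 shRNA and 2810 to 2970 TPM in the controls. CCNE2, a cyclin of S phase entry, stood apart with the largest log2 fold change of the list, 1.52 (adjusted p 1.59e-05). The next was FEN1 at 0.59 (adjusted p 9.34e-05). PCNA, the sliding clamp, was at 0.33 (adjusted p 0.000821), while POLA1 was at -0.47 (adjusted p 0.00453) and RFC4 at -0.50 (adjusted p 0.00141). MKI67, the proliferation marker, did not pass (0.09, adjusted p 0.237). In a list of 15 genes of terminal erythroid maturation 14 (93.3%) passed as higher and 0 as lower, against 22.1% and 31.5% of all genes. Their summed level was 10800 to 11540 TPM with the MEN1 shRNA and 5412 to 5813 TPM in the controls. Of 8 erythroid markers, some of them also in that list, 5 were higher, while KLF1, GATA1 and EPOR did not pass. The replication and maturation lists were drawn up with earlier results of these data known, so their shares are a description. The part of either list in the changes of the nucleotide genes was not tested.

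Of the 3 purine salvage genes tested, 2 (66.7%) were lower, against 31.5% of all genes tested. APRT, which returns adenine to AMP (ENSG00000198931, chromosome 16, 88809339 to 88811937), was at 194.7, 158.4 and 171.6 TPM after MEN1 knockdown, and the controls were at 256.4, 275.7 and 255.1 TPM (log2 fold change -0.59, SE 0.0822, adjusted p 0.000724). HPRT1, which salvages hypoxanthine and guanine (chromosome X, 134460165 to 134520513), was at 138.3, 120.0 and 119.4 TPM against 146.8, 148.7 and 153.1 TPM (log2 fold change -0.25, SE 0.0704, adjusted p 0.0189). The groups of HPRT1 did not overlap, but it was the only called member that lost its call under an alternative, in 7 of 16, with an adjusted p of 0.00244 to 0.138 over all of them. These were median-of-ratios scaling (-0.16, adjusted p 0.0993), the same scaling on coverage per base (-0.15, adjusted p 0.138), removal of globin and mitochondrial genes (-0.18, adjusted p 0.0666), no filter (adjusted p 0.0524), and leaving out MEN1 shRNA replicate 2 or 3 or control replicate 3 (adjusted p 0.0657, 0.0642 and 0.0602). PNP, the purine nucleoside phosphorylase, was at 169.2, 142.4 and 147.6 TPM against 141.9, 161.4 and 151.1 TPM, overlapping, and did not pass (log2 fold change 0.01, adjusted p 0.906). It passed as higher on coverage per base with median-of-ratios scaling (0.20, adjusted p 0.0183).

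ADA, adenosine deaminase, was the member below the filter. It was at 0.436, 0.0446 and 0.0235 TPM after MEN1 knockdown, and the controls were at 0.292, 0.566 and 0.538 TPM, with a mean coverage of at most 0.282 reads per base, and was not tested. At this depth no difference can be read from it. PKIG on the opposite strand covers 39352 bases of its row and was at 21.8 to 39.6 TPM.

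Of the 5 kinases that phosphorylate nucleosides, 2 rose and 1 fell. TK1, the cytosolic thymidine kinase of dividing cells (ENSG00000167900, chromosome 17, 78174091 to 78187233), was at 206.1, 171.9 and 192.4 TPM after MEN1 knockdown, and the controls were at 132.8, 130.8 and 134.9 TPM (log2 fold change 0.51, SE 0.0732, adjusted p 0.000812). DCK, the deoxycytidine kinase (chromosome 4, 70992538 to 71030914), was at 59.8, 61.9 and 53.5 TPM against 46.8, 41.7 and 46.2 TPM (log2 fold change 0.37, SE 0.0796, adjusted p 0.00555). Both genes were higher in all 3 MEN1 shRNA libraries than in any control. The row of DCK overlaps that of MOB1B on the same strand over 29912 bases, and MOB1B rose from 40.8 to 46.4 TPM in the controls to 112.8 to 142.8 TPM, and how reads were divided between these rows was not tested.

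UCK2, a uridine-cytidine kinase (chromosome 1, 165827614 to 165911618), fell and was at 33.5, 32.8 and 31.6 TPM after MEN1 knockdown against 43.3, 40.4 and 42.7 TPM (log2 fold change -0.36, SE 0.064, adjusted p 0.00235). UCK1 was at 17.6, 18.8 and 16.8 TPM against 16.3, 15.6 and 15.2 TPM, with no overlap, and did not pass (log2 fold change 0.17, adjusted p 0.108). It passed as higher in 3 alternatives, those with median-of-ratios scaling, quantile normalization or removal of globin and mitochondrial genes. TK2, the mitochondrial thymidine kinase, was at 6.83, 7.08 and 9.85 TPM against 7.24, 7.08 and 6.68 TPM (log2 fold change 0.14, adjusted p 0.433). Its highest value was that of MEN1 shRNA replicate 3, and it passed as higher on coverage per base with median-of-ratios scaling (0.26, adjusted p 0.041).

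All 4 nucleotide kinases passed the test, 2 in each direction, where 53.6% of all genes tested passed. NME1 and NME2 encode the A and B chains of nucleoside diphosphate kinase, which makes triphosphates from diphosphates, and lie next to each other on chromosome 17 (51153559 to 51162428 and 51165435 to 51171744). NME1 was at 155.4, 145.5 and 161.5 TPM after MEN1 knockdown, and the controls were at 293.8, 271.3 and 313.4 TPM (log2 fold change -0.92, SE 0.0711, adjusted p 6.04e-05). NME2, the most abundant member, was at 711.9, 646.2 and 635.8 TPM against 1086, 1037 and 1075 TPM (log2 fold change -0.68, SE 0.0609, adjusted p 0.0001). The chains are similar in sequence and a readthrough row, NME1-NME2, spans both genes, so how reads were shared out between these rows is not certain. The sum of the 3 rows was 819.2 to 925.0 TPM against 1382 to 1445 TPM (log2 fold change -0.73, adjusted p 8.97e-05).

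CMPK1, which phosphorylates CMP and UMP (chromosome 1, 47333790 to 47394866), was at 142.3, 146.7 and 140.2 TPM after MEN1 knockdown, and the controls were at 104.0, 108.7 and 111.4 TPM (log2 fold change 0.40, SE 0.054, adjusted p 0.000592). AK1, the adenylate kinase of the red cell (chromosome 9, 127866486 to 127877675), was at 29.7, 29.9 and 33.8 TPM against 25.9, 24.6 and 24.0 TPM (log2 fold change 0.31, SE 0.0782, adjusted p 0.0112). Both were higher in every MEN1 shRNA library. An unnamed row, ENSG00000257524, overlaps AK1 on the same strand, and the sum of both rows had a log2 fold change of 0.46 (adjusted p 0.00227).

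Where a step has a pair of related enzymes, the share of each in their summed TPM was compared between the groups. In 9 of 10 pairs all 3 MEN1 shRNA libraries lay on 1 side of all 3 controls, and each of these had an exact permutation p of 0.1 (2-sided), the smallest that 3 against 3 libraries can give, or 0.111 after Benjamini-Hochberg adjustment over the 10 pairs. Among single genes the groups did not overlap in 61.8%, the share over other gene pairs was not computed, and nothing is read from the count. The largest shift was that of PRPS1, from 55.0% ± 1.37 to 77.9% ± 4.16 (SD, n = 3 in both groups), or 23.0 percentage points. IMPDH1 went from 9.51% ± 0.312 to 2.61% ± 0.268 of its pair, UCK1 from 27.1% ± 0.846 to 35.2% ± 1.07 and MTHFD1 from 72.3% ± 3.27 to 80.9% ± 2.71 beside MTHFD1L. RRM2 made up 91.2% ± 0.615 in the controls and 94.9% ± 0.398 with the MEN1 shRNA beside RRM2B, the subunit induced by p53. ADSS1 went from 2.12% ± 0.187 to 3.79% ± 0.0752 of its pair while its own level did not pass the test. TK1 and TK2 were the pair whose shares overlapped (95.99% ± 0.833 against 94.99% ± 0.251, exact permutation p 0.2). Computed from coverage per base, the difference was -15.5 percentage points for IMPDH1 in place of -6.90, 7.83 for RRM2 in place of 3.69 and 0.222 for ADSS1 in place of 1.67.

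**Figure D4:**
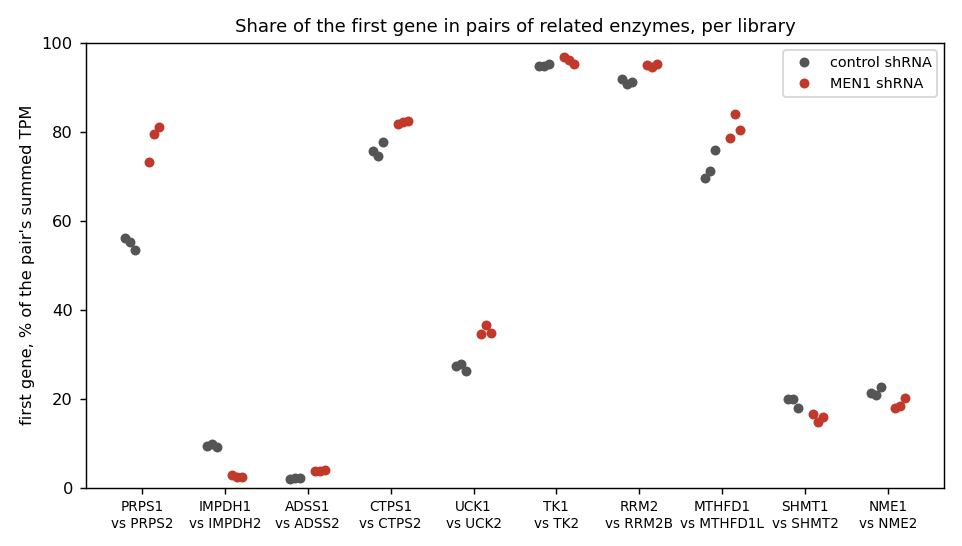
Percent of a pair's summed TPM that belongs to the first gene, for 10 pairs of related enzymes in each library, grey for the control shRNA and red for the MEN1 shRNA. The share of PRPS1 is 53.5% to 56.2% in the controls and 73.2% to 81.0% with the MEN1 shRNA, and only the points of TK1 and TK2 overlap.

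Other genes of nucleotide metabolism were taken from a list of 68, of which 51 passed the filter. Of these 51, 19 (37.3%) were lower and 11 (21.6%) were higher, against 31.5% and 22.1% of all genes, with a median log2 fold change of -0.14. The count of higher genes was 6 without MEN1 shRNA replicate 2 or 3 and 7 without control replicate 2. The lowest adjusted p was that of GMPR, which converts GMP back to IMP and is abundant in erythroid cells: it was at 587.3, 677.5 and 653.8 TPM after MEN1 knockdown, and the controls were at 245.6, 254.6 and 272.1 TPM (log2 fold change 1.31, SE 0.0712, adjusted p 2.43e-05). GMPR therefore moved in the opposite direction to IMPDH1, which leads from IMP towards GMP. GUK1, which phosphorylates GMP to GDP, was also higher (log2 fold change 0.94, adjusted p 0.000139), as was AK3 of the mitochondrial matrix (0.48, adjusted p 0.000737). The nucleoside importer SLC28A3, counted among the 11, was at 1.22, 2.30 and 3.59 TPM after MEN1 knockdown, and the controls were at 0.0148, 0.0249 and 0.281 TPM. It met the filter only through the MEN1 shRNA group, so its call is not read as a result.

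The lower genes included adenosine and AMP enzymes. ADK, adenosine kinase, was at 30.0, 29.5 and 27.2 TPM after MEN1 knockdown, and the controls were at 58.9, 61.9 and 62.7 TPM (log2 fold change -1.06, SE 0.0669, adjusted p 3.32e-05). AMPD2, an AMP deaminase, had a log2 fold change of -1.57 (adjusted p 8.02e-05) and AK4, a mitochondrial adenylate kinase, of -1.01 (adjusted p 0.000278). ITPA, which clears deaminated purine nucleotides, fell by 0.74 on the log2 scale (adjusted p 0.000526). NT5C3A, the pyrimidine nucleotidase of maturing red cells, was at 24.3 to 27.7 TPM with the MEN1 shRNA and 31.9 to 37.1 TPM in the controls (log2 fold change -0.39, adjusted p 0.00584).

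Genes of mitochondrial folate metabolism went both ways. GCSH of the glycine cleavage system fell by 1.57 on the log2 scale (adjusted p 0.000198). MTHFD2 was higher (0.30, adjusted p 0.0123), and SHMT2 was lower (-0.22, adjusted p 0.0223), a call that was lost under 8 of 16 alternatives, 4 of which left out MEN1 shRNA replicate 2 or 3 or control replicate 1 or 3 (adjusted p 0.066 to 0.0748). RRM2B (-0.08, adjusted p 0.484) and SAMHD1, the deoxynucleotide triphosphohydrolase (-0.12, adjusted p 0.44), did not pass.

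**Figure D5:**
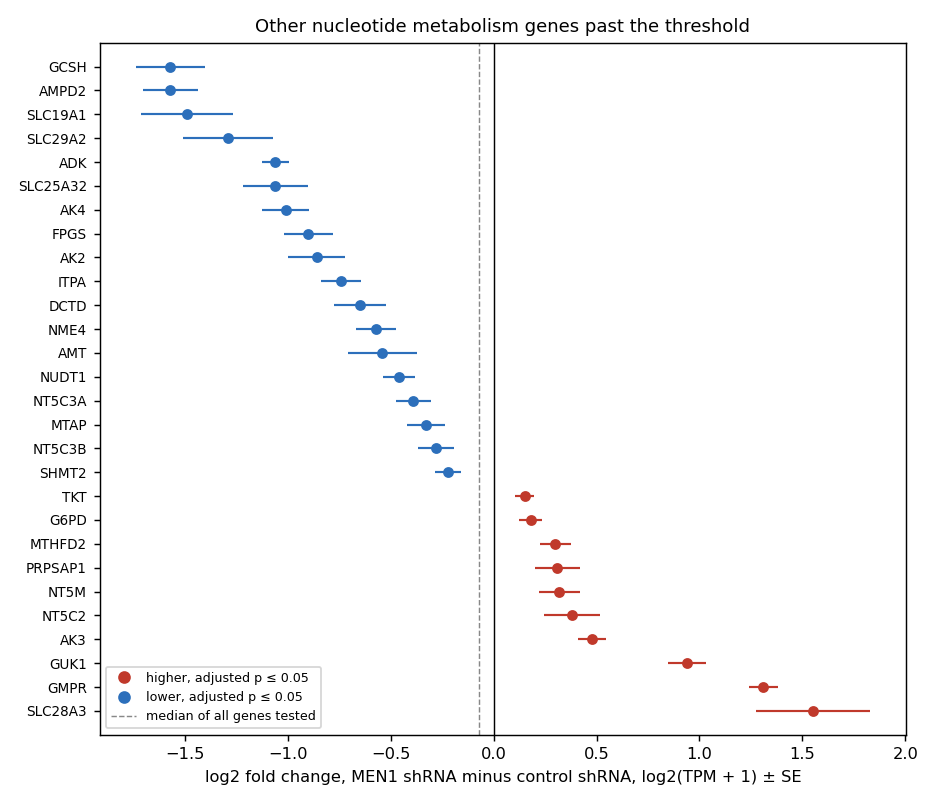
Log2 fold change of log2(TPM + 1), MEN1 shRNA minus control shRNA, with its standard error for 28 genes of the further list that passed an adjusted p of 0.05, 10 higher in red and 18 lower in blue. GMPR lies at 1.31, SLC28A3, which met the filter only through the MEN1 shRNA libraries, at 1.55, and GCSH and AMPD2 farthest to the left, both at -1.57.

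Level and change were not closely related among the members. Across the 37 members tested, Spearman's rho between the mean control TPM and the log2 fold change was -0.11, a description over genes that share the same 6 libraries. In the controls the most abundant members were NME2 (1066 TPM), IMPDH2 (544.7 TPM) and GART (374.1 TPM), and all of these were lower with the MEN1 shRNA. With the MEN1 shRNA the order below NME2 changed, with IMPDH2 at 422.4 ± 47.2 TPM and RRM2 at 407.5 ± 15.2 TPM, a pair that did not differ beyond its spread, followed by TYMS at 339.6 ± 11.2 TPM.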

How the data were processed

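Poly(A) RNA of 6 HUDEP-2 libraries was made into directional libraries, per the labels' protocols. The submitters' processing notes name the hg38 build, FastQC, Trimmomatic, STAR 2.7.1a, Picard 2.20.4 and StringTie 2.0.4. Neither annotation nor strand setting is given in the sources used here. The deposited TPM values share 1 constant sum in every library, the deposited FPKM values are a fixed multiple of them, and the deposited coverage is a signal per base not scaled for depth, per the file headers. Just-negative residues in control replicate 2 were set to 0. Depth came from the ratio of coverage to FPKM in single-transcript genes (pairs of 302 bases). The tables hold no counts, and no count model was used.

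A linear model per gene on log2(TPM + 1), which understates the change of low genes, was run in limma 3.58.1 (R 4.3.3, lmFit, eBayes with trend) for genes that reached 1 TPM in 3 or more libraries. Tests were 2-sided, p-values were Benjamini-Hochberg adjusted over every gene tested, and the fit was tested on simulated data. Figures and shares were made with Python 3.11.15, SciPy 1.17.1 and matplotlib 3.10.9. Members, lists and motifs were chosen with earlier results of these data known. Values in every library are given for called members with an absolute log2 fold change of 0.5 or more and for the 3 lowest adjusted p of each role, members below the filter and isozyme pairs. Of the further list, up to 6 called genes per direction by lowest adjusted p are named, plus RRM2B, SHMT2, MTHFD2, SAMHD1 and NT5C3A, and 2 genes of that list are not reported here. Alternatives changed scaling, pseudocount, filter, weights, pairing or the libraries used.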

Additional observations from a re-analysis of the deposited data

How the results depend on the processing

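Of 591 comparisons of a member with an alternative, 565 kept their side of the threshold, 7 lost the call, 18 gained it and 1 turned direction with a call, PPAT without control replicate 2 (-0.28, within -0.28 to 0.22 when each library was left out). Of the 25 called members, 24 kept direction and call under every alternative run, HPRT1 being the exception. Among uncalled members ADSL, ADSS1, CTPS1, DUT, GMPS, PNP, PPAT and TK2 changed sign under at least 1 alternative, some of them within the 565. Median-of-ratios scaling gave 9 higher members in place of 6, and coverage per base with that scaling gave 10. The median log2 fold change of the members was -0.16 under median-of-ratios scaling and -0.18 after removal of globin and mitochondrial genes from TPM, which moved the median of all genes from -0.07 to 0.0078 and -0.0097. Leaving out 1 library at a time gave medians of -0.34 (without control replicate 2) to -0.23, 6 to 7 higher and 18 to 20 lower members, 6577 to 7545 called genes, and 6 to 10 higher genes of the further list in place of 11. That count was 6 without MEN1 shRNA replicate 2 or 3 and 7 without control replicate 2, and the cause was not tested. With coverage per base in place of TPM and no other change, the difference in share was -15.5 percentage points for IMPDH1 (main -6.90), 0.222 for ADSS1 (1.67), 9.22 for CTPS1 (6.15), 0.138 for TK1 (0.996) and 7.83 for RRM2 (3.69). Deviations from the group means were not correlated between libraries of the same replicate number (0.0171, -0.0265 and -0.0124), so the numbers were not taken to pair the samples. With a replicate block 7014 genes passed, with 6 higher and 19 lower members. TPM from multi-isoform genes rests on how reads were assigned, and the tables give no counts for it.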

Other observations

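In 18 of the 19 lower members, MEN1 shRNA replicate 1 had the highest level of its group and so lay nearest the controls, NME1 being the exception. Over all genes called lower, replicate 1 lay nearest the controls in 64.2%. Among the 6 higher members it lay nearest in 3 (50.0%), against 66.5% of all genes called higher. Without that library the log2 fold change went from -2.25 to -2.41 for IMPDH1, from -1.58 to -1.75 for PFAS, from -1.21 to -1.37 for PRPS2 and from -1.12 to -1.21 for CAD, and 19 members were lower and 7 higher. MEN1 itself was at 6.29 TPM in that library and at 6.44 and 6.88 TPM in the others of its group. Why that library lay nearest the controls was not tested.

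Several enzymes of nucleotide breakdown were close to absent. XDH, which makes uric acid, and GDA, which deaminates guanine, were listed at 0 in all 6 libraries, and ADA2, the secreted adenosine deaminase, had a mean of 0.000430 TPM with the MEN1 shRNA and 0.000956 TPM in the controls. Of the 68 further genes, 17 were below the filter on low values. SLC29A1, the equilibrative nucleoside transporter of red cells, was at 313.9 TPM with the MEN1 shRNA and 301.3 TPM in the controls and did not pass (log2 fold change 0.06, adjusted p 0.449). SLC29A2, its paralog, was lower (log2 fold change -1.29, adjusted p 0.00177), and so was the folate importer SLC19A1 (-1.49, adjusted p 0.000951). The last 3 genes were chosen after their values were seen.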
